A study of Solanum lycopersicum with 12 samples.

Results

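The stele, the central cylinder of the root with its xylem and phloem, was compared between transgenic tomato of line 4 (L4), which carries 35S:AtHMA4, and wild-type (WT) tomato. All 6 stele arrays of the series entered the comparison, 3 of L4 and 3 of the WT, and probe sets were used where the mean log2 value over these 6 arrays was at least 4. This kept 5068 of 10209 probe sets, or 50.2% of the 10101 left once 108 array controls were set aside. The kept probe sets stand for 556 genes with a symbol, and 4480 of them carry none, so most are counted without a name. Both genotypes were of the variety Beta and grew in hydroponics with 5 μM Zn. The sample labels give plants 25 days old after 15 days of Zn, whereas the methods of the study give a shorter exposure and younger plants. In each of 3 independent experiments, root pieces of 6 plants were pooled, the stele was cut out of frozen sections with a laser, and its RNA was amplified before labelling. The epidermis and cortex (EC) of the same roots gave the other 6 arrays of the series. L4 is a single transgenic line, and its 35S promoter is active in most cells of the plant, so the arrays describe a plant that carries the transgene in all tissues and not in the stele alone. The AtHMA4 transcript itself was not analysed here, since the array holds tomato probes.

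AtHMA4 is a pump of Arabidopsis that moves Zn and Cd out of cells, and in that plant it loads Zn into the xylem of the stele for transport to the shoot. Iron uptake of tomato roots depends on the bHLH factor FER, and iron and zinc share several transporters and chelators. Ethylene is made from methionine by ACC synthases and ACC oxidases, is sensed by receptors of the ETR family that act through the kinase CTR1, and reaches its target genes through EIN2, the EIL factors and the ethylene response factors.

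The arrays of replicate 3 of both genotypes stood apart from the others. Their spike-in controls, RNA added in fixed amounts, had a mean log2 value of 12.2 in the WT and 11.6 in L4, against 9.36 to 10.1 on the other 4 stele arrays, and their medians over the kept probe sets were 7.82 and 7.92, against 8.14 to 8.24. The array of the series with the highest spike-in mean was L4 EC replicate 2, at 13.7. Control probe sets at the 3' end exceeded those at the 5' end by 7.99 to 10.0 for actin and 7.52 to 10.5 for GAPDH on the log2 scale in the stele. The mean correlation of an array with the others of its group was 0.826 to 0.889. The markers held few stele genes: SUT2, a sucrose transporter of the phloem, had a mean of 6.13 in the WT stele and 6.77 in the WT EC, and sus3, a sucrose synthase, had 13.4 and 13.6. Of the 8 markers of the epidermis and cortex, 6 were under the level filter. The phosphate transporter PT1 had a mean of 5.33 in the WT stele and 7.06 in the WT EC, and the expansin exp18 had 9.76 and 9.44. SUT2, sus3 and exp18 thus did not lie on the side their labels give or lay close in both sectors, while PT1 lay on its side. By quantitative PCR the study found exp18 high in the WT EC and very low in the WT stele, unlike these array values. Under the filter, PT2 had WT means of 2.23 in the stele and 3.79 in the EC, and SUT4 had 3.35 and 2.64. Both lay on their labelled side at low signal, and the other EC markers under the filter were higher in the EC by little. With markers this mixed, the labelled tissue rested on the dissection.

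A regulator of iron uptake, a CBF factor and a pair of ethylene genes gave the smallest p between L4 and the WT, but no gene passed the test. FER lay 4.28 higher in L4 on the log2 scale, while CBF1, ERF2 and the ACC oxidase gene ACO5 lay 5.46, 4.34 and 7.53 lower. These 4 were also the probe sets with an adjusted p below 0.2. All 4 passed the level filter through 1 genotype only and so had to differ, and their p values are given as a description. With limma and Benjamini-Hochberg adjustment, 0 of 5068 probe sets (0.0%) were called at an adjusted p under 0.05 and at least 1.2-fold. The smallest adjusted p was 0.107. The thresholds of fold and adjusted p are those of the study, which did report differing genes in the stele at them. Details of its test were not in the sources used here, and why the outcomes differ was not tested. Before adjustment 146 probe sets (2.88%) were past 0.05 and 1.2-fold, of which 54 (1.07%) lay higher in L4 and 92 (1.82%) lower. All 3 L4 arrays lay above all 3 WT arrays for 136 probe sets (2.68%) and below them for 170 (3.35%), together 306 (6.04%). The mean was higher in L4 for 51.8% of the probe sets and lower for 48.2%, with a median difference of 0.024 and a standard deviation over probe sets of 0.79. A difference of at least 2 on the log2 scale was seen for 136 probe sets (2.68%). The standard error of a difference had a median of 0.65, so a difference of 1 on the log2 scale is not distinguishable from 0 for a typical probe set. Fewer cells of a type in a sample and less RNA per cell cannot be told apart in these pooled tissues.

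**Figure D1:**
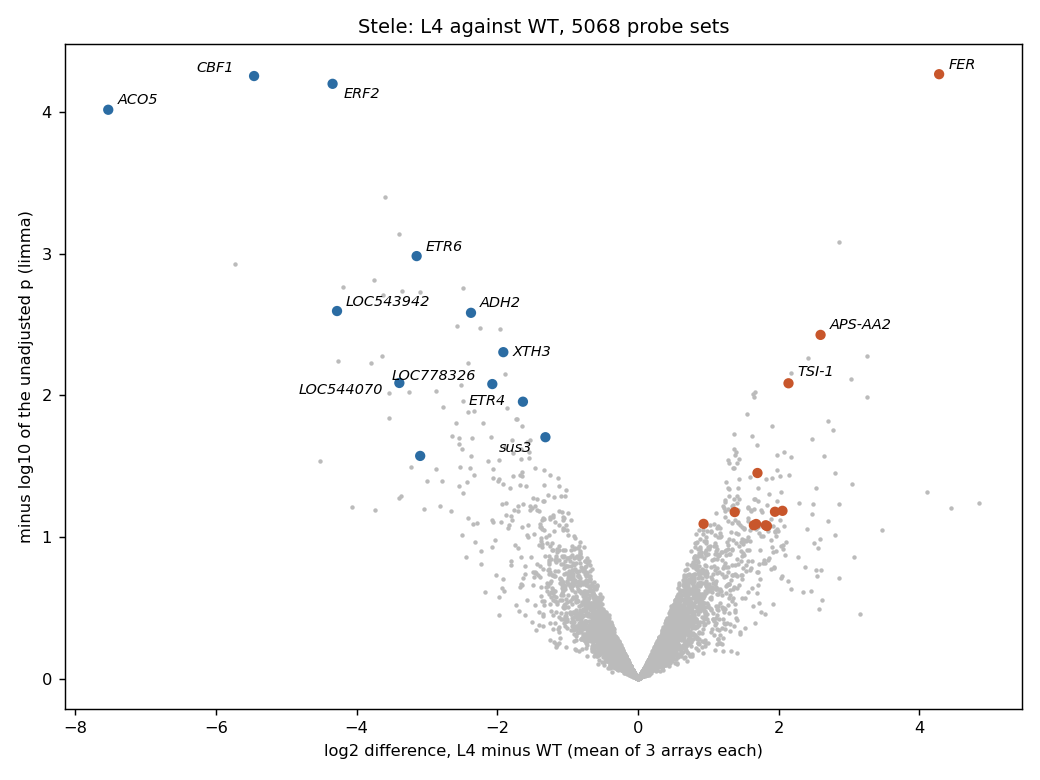
Each point is 1 of the 5068 probe sets kept, by the log2 difference between L4 and WT in the stele (x axis) and minus log10 of the unadjusted p of limma (y axis). The 24 genes picked by smallest p are coloured, 12 higher in L4 and 12 lower. FER, CBF1, ERF2 and ACO5 lie apart from the rest at the top, with adjusted p of 0.107 to 0.122 (limma). Each of these passed the level filter through 1 genotype only and so had to differ.

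FER had log2 values of 3.07, 3.37 and 3.94 in WT replicates 1 to 3 and of 7.84, 7.19 and 8.20 in L4. Every L4 array was thus above every WT array, and the gap between the groups was wider than the range within either. The difference of 4.28 (standard error 0.51, 95% interval 3.09 to 5.48) corresponds to 19.5-fold on the array scale (adjusted p = 0.107, limma). It was 4.06 to 4.56 when single arrays were left out. FER passed the level filter through its L4 values only, as did 108 probe sets in all, while 106 passed through their WT values only. CBF1, ERF2, ACO5, ETR6 and LOC543942 were among the latter, with L4 means of 2.19, 3.896, 2.56, 3.13 and 3.55. So were the ethylene synthesis gene ACS1A and IAA2, LKT1, TomloxE and CAB6A, while cMDH, ARPI, AOX1a and Cry1b passed through L4 only. Genes that passed in this way had to differ, so their differences and the list counts that hold them are given as a description. The study notes that the FER probe set also matches other stretches of the tomato genome. Its signal may thus not come from this gene alone. By quantitative PCR (RT-qPCR) the study found FER mRNA lower in L4 than in the WT in both root sectors, the opposite direction. Where the methods differed, the study gave precedence to RT-qPCR.

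CBF1, a factor of the CBF and DREB family known for the response to cold, had log2 values of 8.03, 8.56 and 6.35 in the WT and of 2.34, 2.09 and 2.12 in L4. All 3 L4 values were below the lower quartile of their arrays, which was 2.37 to 2.58 on the stele arrays, so the size of the difference of -5.46 (standard error 0.65; limma, adjusted p = 0.107) is uncertain. It was the 1 gene of 4 CBF and DREB genes on the array that passed the level filter. ERF2, an ethylene response factor, had 7.99, 8.93 and 7.80 in the WT and 4.11, 3.38 and 4.20 in L4, a difference of -4.34 (standard error 0.53; limma, adjusted p = 0.107). The ERF2 groups were separated by more than 3 log2 units. ACO5, an ACC oxidase, which catalyses the last step of ethylene synthesis, had 8.31, 12.25 and 9.73 in the WT and 2.97, 2.01 and 2.71 in L4. Its WT arrays differed among themselves by almost 4 log2 units, yet each was far above the L4 arrays, and the difference was -7.53 (standard error 0.98; limma, adjusted p = 0.122). For these 3 genes the differences stayed between -6.11 and -5.003, -4.56 and -3.9998, and -8.43 and -6.46 when single arrays were left out. Without replicate 3 of both genotypes FER was at 4.30, CBF1 at -6.08, ERF2 at -4.71 and ACO5 at -7.79.

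**Figure D2:**
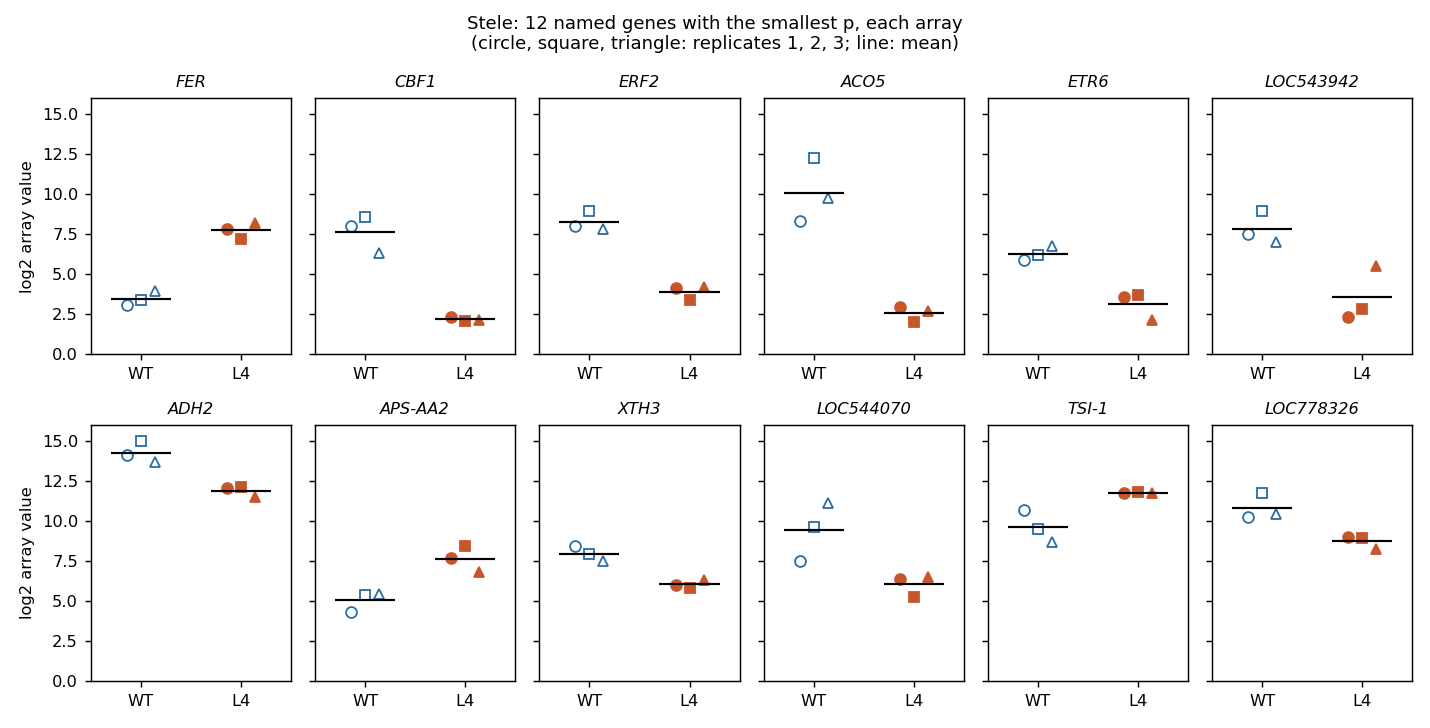
Log2 values of each of the 6 stele arrays (y axis) for the 12 named genes with the smallest p, WT in open blue and L4 in filled orange symbols, with circles, squares and triangles for replicates 1, 2 and 3 and a line at the group mean. In each panel the 3 L4 arrays lie on 1 side of the 3 WT arrays, by a wide gap for FER, CBF1, ERF2 and ACO5 and by a narrow one for LOC544070 and TSI-1.

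Genes of ethylene synthesis and perception mostly had lower means in L4, 15 of the 20 kept, with a median of -0.69 against 0.024 over all probe sets kept. Before adjustment 4 of the 20 were past the threshold, all lower, against 1.82% of all probe sets, and 6 had all L4 arrays below all WT arrays, against 3.35%. With the 7 genes under the level filter included, 20 of 27 had lower means and the median was -0.54. Without replicate 3 of both genotypes 17 of the 20 had lower means, with a median of -1.05 against 0.0024 over all probe sets kept. The list was part of what earlier work on these data had pointed to, so its counts are no independent evidence. Among the receptors, ETR6 had 5.87, 6.17 and 6.79 in the WT and 3.59, 3.67 and 2.12 in L4, a difference of -3.15 (standard error 0.60; limma, adjusted p = 0.659). ETR4 had 9.42, 10.43 and 9.52 in the WT and 8.27, 8.13 and 8.06 in L4, a difference of -1.64. The third receptor, LOC544279, also known as ETR3 or Never ripe, had 9.87, 9.57 and 9.65 in the WT and 8.77, 8.57 and 8.71 in L4. Its difference of -1.02 was small, but the values within each genotype lay within 0.4 log2 units of each other. ETR5 lay lower in L4 by 1.00, and its groups did not overlap either. ETR1 and ETR2 had overlapping groups and differences of 0.41 and -0.61.

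On the arrays, ethylene synthesis genes other than ACO5 did not share its pattern. ACO4, another ACC oxidase gene, had 10.65, 12.08 and 11.92 in the WT and 11.40, 11.34 and 11.34 in L4, a difference of -0.19 (standard error 0.54). By RT-qPCR the study found ACO4, ACO5 and Never ripe mRNA strongly lower in L4 than in the WT in both root sectors. The stele arrays had the same direction for ACO5 and Never ripe, but showed no such difference for ACO4. ACO6 had 9.63, 6.43 and 8.74 in the WT and 8.90, 10.44 and 10.99 in L4, a difference of 1.84 with overlapping groups. The ACC synthase genes ACS1A and ACS6 had differences of -1.77 and -0.77, also with overlap. Downstream of the receptors, EIL2, a transcription factor of the EIN3 family, had 11.45, 11.64 and 10.64 in the WT and 9.84, 10.63 and 10.08 in L4, which left the groups barely apart and the difference at -1.06 (standard error 0.51). EIL1, EIL3 and EIL4 had -0.43, -0.54 and -1.02 with overlap, EIN2 had 0.30, and the kinase genes CTR1, CTR3 and CTR4 had -0.13, 0.20 and -0.82.

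Of the ethylene response factors, 7 of the 8 kept had lower means in L4, with a median of -0.76, against 48.2% lower means over all probe sets, and ERF2 was the 1 past the unadjusted threshold in this direction, where 1.82% of all probe sets were. The median lay between -1.53 (without WT replicate 3) and -0.29 when single arrays were left out. PTI6, which binds the same kind of promoter element in defence genes, had 7.37, 8.51 and 5.79 in the WT and 5.33, 5.78 and 5.67 in L4, a difference of -1.63 with adjoining groups. JERF3 had -0.90, and LOC606712, also known as TERF1, had -1.03 (standard errors 0.75 and 1.22). ERF-H1 was the 1 member with a higher mean, at 0.65. With the 3 genes under the filter included, 9 of 11 had lower means, and without replicate 3 of both genotypes 7 of the 8 did.

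**Figure D3:**
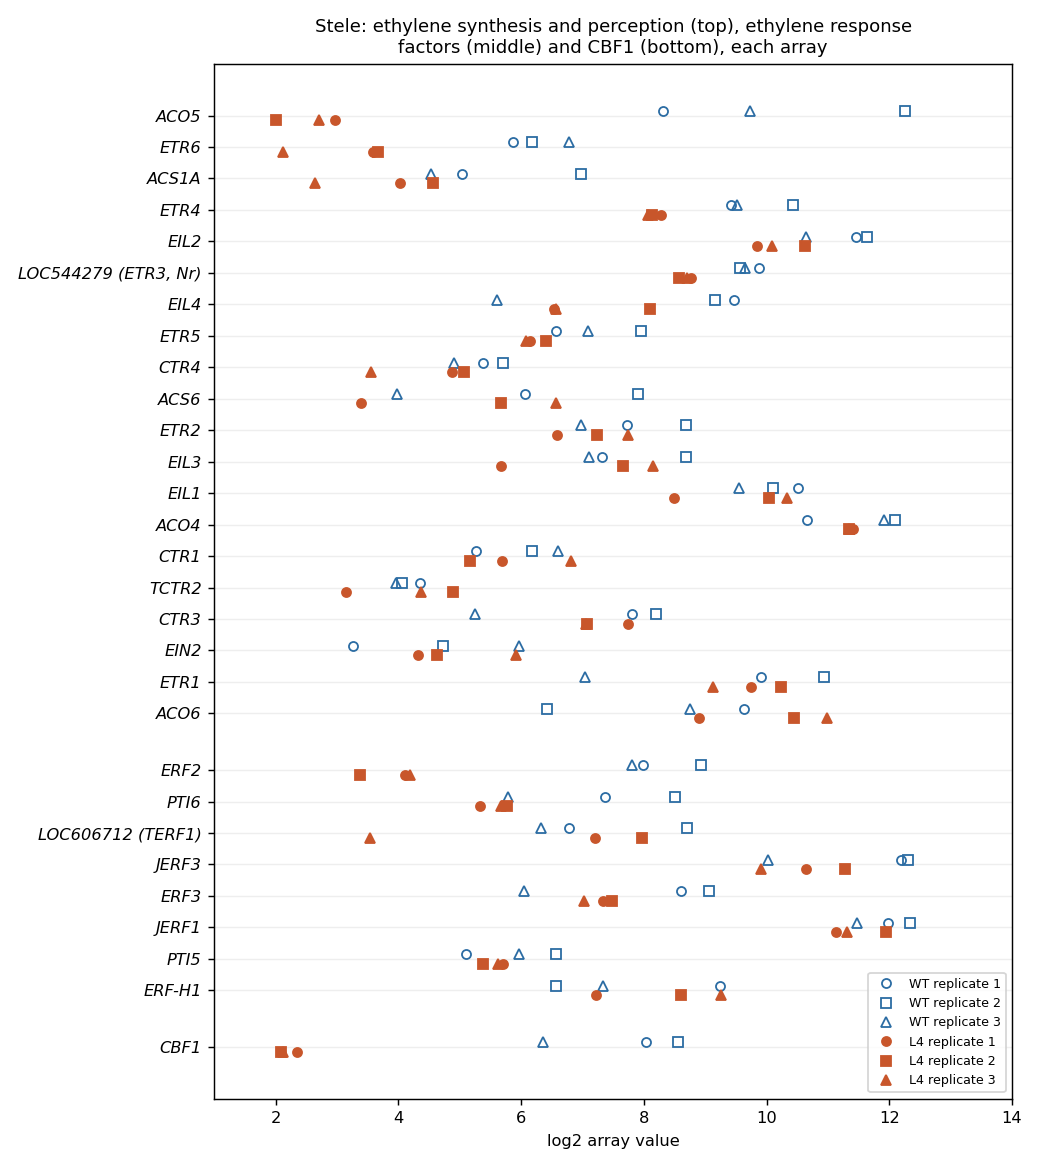
Log2 values on each stele array (x axis) of 20 genes of ethylene synthesis and perception, 8 ethylene response factors and CBF1 (y axis), WT in open blue and L4 in filled orange symbols, shaped by replicate. ACO5, ETR6, ERF2 and CBF1 show wide gaps between the genotypes, ETR4 and LOC544279 narrow ones, and most other genes overlap.

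The other transcription factors were mixed. Of 29 kept factors of the WRKY, MYB, bHLH, bZIP, NAC and homeobox families, 20 had lower and 9 higher means in L4, with a median of -0.31, against 48.2% lower means over all probe sets. Past the unadjusted threshold were 3, FER higher and NAC1 and LOC543600 lower, where 1.07% and 1.82% of all probe sets lay. NAC1 had 7.09, 6.64 and 6.20 in the WT and 5.04, 4.37 and 5.88 in L4, a difference of -1.55 (standard error 0.56). LOC543600, also known as NIF1, a bZIP factor of the TGA kind, had 9.83, 10.39 and 9.49 in the WT and 8.35, 8.03 and 9.32 in L4. Its L4 replicate 3 came within 0.2 log2 units of the WT, and the difference was -1.33. MYC2, a bHLH factor of jasmonate signalling, had 9.61, 9.47 and 8.76 in the WT and 8.39, 8.24 and 8.23 in L4, a difference of -0.99 (standard error 0.46) with separate groups. LebZIP44, which the study names among its root genes, had -0.55 with overlapping groups. The adjusted p of NAC1, LOC543600 and MYC2 was 1.00 from limma for each.

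Metal genes, the group nearest to the transgene's function, showed no difference past the unadjusted threshold, which 2.88% of all probe sets passed. Of 13 genes of metal transport, reduction and chelation on the array 9 were kept, 4 with higher and 5 with lower means and a median of -0.037. No member had separate groups, against 6.04% of all probe sets. Among 9 genes, none is close to these shares and says nothing particular of metal genes. Nramp2, a transporter of divalent metals, had 6.14, 6.18 and 5.76 in the WT and 5.97, 6.22 and 5.79 in L4. These values nearly coincide, and the difference of -0.037 (standard error 0.44) had a 95% interval of -1.07 to 1.00. In a separate experiment at the same Zn level, the study found Nramp2 mRNA by RT-qPCR higher in the L4 stele than in the WT stele. The array values do not show such a rise, though their interval leaves room for one of up to 1.00. The study notes that this probe set matches other sequences too. NRAMP3 had 6.69, 9.28 and 6.35 in the WT and 7.48, 8.32 and 5.64 in L4, a difference of -0.30 (standard error 1.00), with a wide spread in both genotypes. The metallothioneins, small proteins that bind metals through cysteines, included MT2 at -1.34, LEMT1 at -0.35, MT4 at 0.15 and MT3 at 0.37. MTA, also of this list, had its highest difference, 0.47 (standard error 0.68), with overlap. The WT arrays of MT2 ranged from 5.63 to 10.32, so its difference had a standard error of 1.15. The copper chaperone CCH had -0.69 and CCS, which loads copper into superoxide dismutase, had 0.37. NRAMP1, the iron transporter gene LOC543597 (LeIRT1) and the ferric reductase gene FRO1 were under the level filter, with means of 2.48, 2.49 and 2.04 in the WT and 2.83, 2.52 and 2.14 in L4, close to the lower quartile of the arrays. No statement on these 3 genes can be made at this signal.

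Transporters of other ions and water were without calls, as were all 5068 probe sets. Of 11 kept, 5 had higher and 6 lower means, with a median of -0.033. LKT1, a potassium channel gene, had 4.77, 6.49 and 4.37 in the WT and 4.00, 3.64 and 3.95 in L4, a difference of -1.35 (standard error 0.65) with separate groups. The aquaporin gene Aqp2 had 9.46, 8.75 and 8.09 in the WT and 9.35, 10.90 and 9.59 in L4, a difference of 1.18 with overlap. The proton pump genes LHA1 and LHA2, which energise the plasma membrane, had -0.033 and -0.073, the ammonium transporter AMT1-2 had -0.050 and the sulfate transporter ST1 had 0.0040. PT1 had -0.50.

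Among genes of oxygen shortage, ADH2 and GLB2 went opposite ways. ADH2, an alcohol dehydrogenase of fermentation, had 14.13, 15.00 and 13.66 in the WT and 12.05, 12.12 and 11.51 in L4. The groups were separated by more than 1.5 log2 units, and the difference was -2.37 (standard error 0.53; limma, adjusted p = 0.782), or 5.19-fold. The haemoglobin gene GLB2 had 6.41, 7.10 and 7.16 in the WT and 7.35, 9.48 and 8.94 in L4, a difference of 1.70 (standard error 0.66) with groups that adjoined. The bZIP gene abz1 had 0.48 with overlap.

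Sugar genes lay close to 0 as a group, with 7 higher and 8 lower means among 15 kept and a median of -0.054. The sucrose synthase gene sus3 had 13.20, 13.74 and 13.31 in the WT and 12.18, 11.91 and 12.22 in L4, a difference of -1.32 (standard error 0.44) with separate groups, and was the 1 member past the unadjusted threshold, where 1.82% of all probe sets lay lower. The acid invertase gene AI had 1.12 and the fructokinase gene FRK1 -0.74. SUT2 had 6.85, 6.77 and 4.77 in the WT and 7.04, 6.87 and 5.01 in L4. Both genotypes had their lowest SUT2 value in replicate 3, and the difference was 0.17.

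Enzymes against reactive oxygen showed 9 higher and 7 lower means among 16 kept, with a median of 0.12. None was past the unadjusted threshold, against 2.88% of all probe sets, which for 16 genes is close to that share. AOX1a, the alternative oxidase of mitochondria, had 5.28, 2.57 and 3.64 in the WT and 6.20, 6.62 and 4.16 in L4, a difference of 1.83 (standard error 0.92) with overlap. The iron superoxide dismutase FESOD had 5.64, 5.62 and 5.45 in the WT and 5.48, 6.62 and 6.94 in L4, a difference of 0.77. The ascorbate peroxidase genes APX1 and APX2 had 0.18 and -0.51, and the catalase genes cat1 and CAT2 had 0.69 and -0.49. In central carbon metabolism 9 means were higher and 7 lower among 16 kept. The malate dehydrogenase gene cMDH had 3.86, 1.84 and 4.22 in the WT and 3.98, 6.02 and 4.86 in L4, a difference of 1.65 with overlap at low signal. TKR had 1.95 with overlap.

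Cell wall genes leaned towards higher means in L4, 22 of 31 kept against 51.8% of all probe sets, but the 2 past the unadjusted threshold were lower, as were 1.82% of all probe sets. With the 20 genes under the filter included, 31 of 51 had higher means and the median was 0.061, and without replicate 3 of both genotypes 17 of the 31 kept had higher means. XTH3, an enzyme that cuts and rejoins xyloglucan, had 8.45, 7.91 and 7.49 in the WT and 5.99, 5.79 and 6.33 in L4. By RT-qPCR the study found XTH3 mRNA higher in L4 than in the WT in the stele, opposite to these array values. The XTH3 groups on the arrays were separated by more than 1 log2 unit, and the difference was -1.92 (standard error 0.48; limma, adjusted p = 1.00). tXET-B2, of the same enzyme family, had 8.82, 7.78 and 6.33 in the WT and 5.26, 5.39 and 6.34 in L4, a difference of -1.98, where WT replicate 3 and L4 replicate 3 were equal within 0.02. XTH5 had -1.26, XTH6 0.29 and XTH16 0.17. Xegip, an inhibitor of a xyloglucan-cleaving enzyme, had 8.26, 3.14 and 3.41 in the WT and 8.32, 6.54 and 6.76 in L4, a difference of 2.27 (standard error 1.37), and the cellulase gene Cel2 had 1.54, both with overlap. The expansin exp18 had 9.66, 10.38 and 9.25 in the WT and 9.68, 10.36 and 9.46 in L4, a difference of 0.072. These exp18 values were nearly equal replicate by replicate. By RT-qPCR the study found exp18 mRNA reduced to almost nothing in L4 in both root sectors, which these array values do not show. The expansin EXPA8 was under the filter, with 4.12, 3.05 and 6.88 in the WT and 3.36, 3.34 and 2.88 in L4.

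Tyramine hydroxycinnamoyltransferases, which make phenolic amides that strengthen walls, had lower means in L4 without separate groups, which 3.35% of all probe sets had in this direction. THT7-1 had 4.762, 7.999 and 4.546 in the WT and 4.50, 5.19 and 3.99 in L4, a difference of -1.21 (standard error 0.97). THT1-3 and THT7-8 had -1.18 and -0.79. In all 3 genes the highest WT value was in replicate 2, as was the highest L4 value of THT7-1 and THT7-8. These transferases are close in sequence, so their probe sets may share signal. The transferase gene hqt had 0.91.

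Defence proteins had lower means in 7 of 9 kept, against 48.2% of all probe sets. Their median was -0.95, lay between -1.14 and -0.11 (without WT replicate 1) when single arrays were left out, and became -0.10 when the 8 genes under the filter were included and -0.30 without replicate 3 of both genotypes. TSI-1 went the other way: it had 10.66, 9.48 and 8.71 in the WT and 11.75, 11.80 and 11.73 in L4, a difference of 2.14 (standard error 0.59; limma, adjusted p = 1.00). Its L4 arrays agreed within 0.1 log2 units, while the WT arrays spread over almost 2. The basic glucanase GluB had 12.91, 12.86 and 11.98 in the WT and 12.20, 11.37 and 8.64 in L4, a difference of -1.85 with overlap. The chitinase gene CHI9 had -1.37, PR1b1 had -1.70 and the osmotin-like gene NP24-I had -0.95, the last of these with separate groups. The jasmonate list, with 6 higher and 4 lower means, centred on 0.044. Its lipoxygenase gene TomloxE had -1.39, the receptor gene COI1 0.51, and the synthesis genes AOC and OPR3 0.078 and 0.040.

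**Figure D4:**
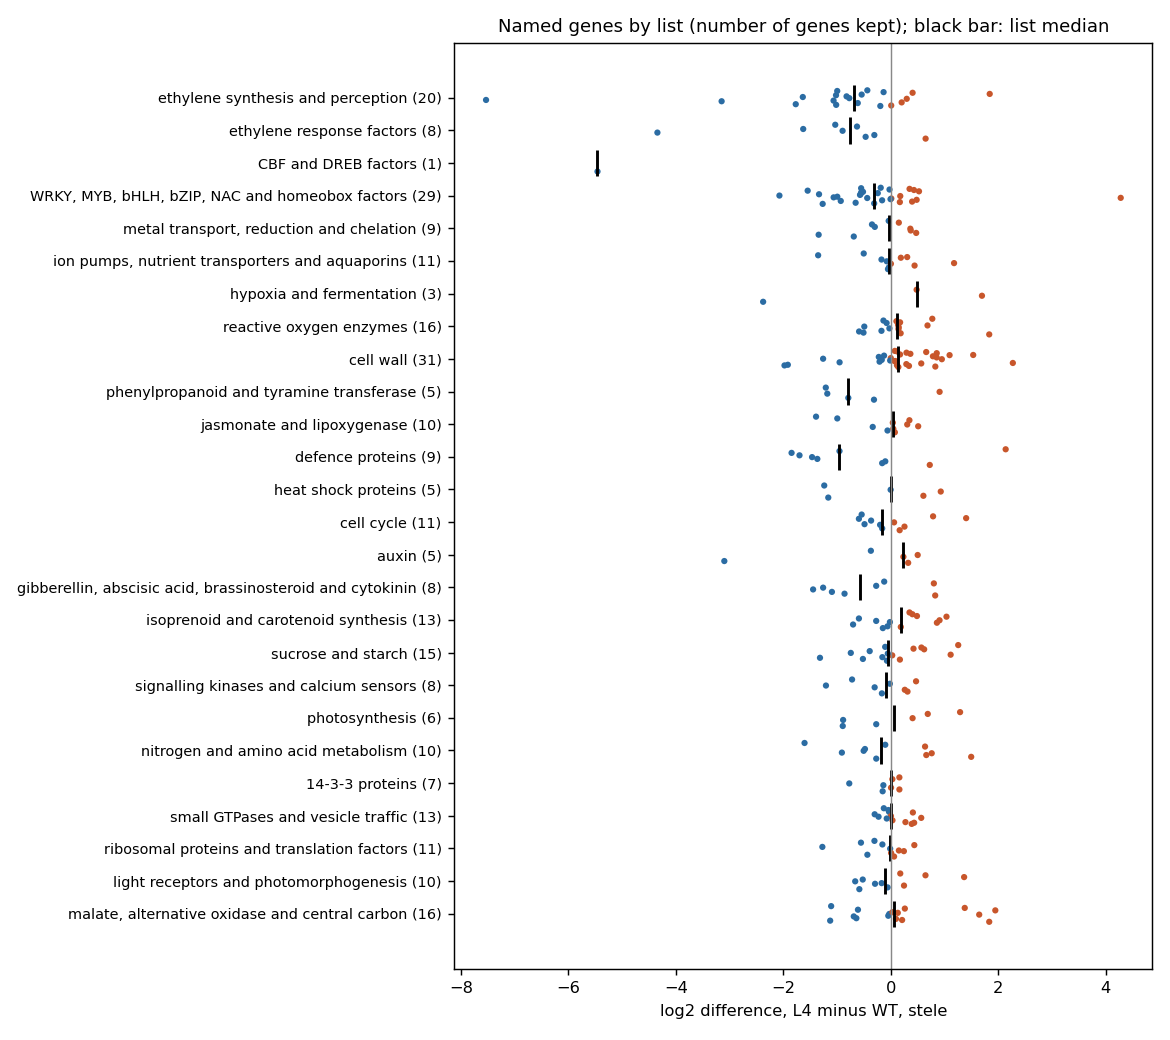
Log2 difference between L4 and WT in the stele (x axis) for each kept gene of 26 lists (y axis, with the number of genes kept), lower in blue and higher in orange, with a black bar at the list median. The lists of ethylene genes and defence proteins have medians of -0.69 and -0.95, those of ethylene response factors, of phenylpropanoid genes and of gibberellin and further hormones have -0.76, -0.79 and -0.56, and the CBF and DREB list holds 1 gene at -5.46.

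Of the other hormone genes, IAA2, of the Aux/IAA repressors of auxin signalling, had 6.99, 9.11 and 4.46 in the WT and 3.95, 3.04 and 4.29 in L4. Its groups were separate by less than 0.2 log2 units and its difference was -3.10 (standard error 1.12), ranging from -4.29 to -1.97 without single arrays. IAA16, IAA17 and IAA27 had 0.24, -0.37 and 0.50. SPY, a repressor of gibberellin signalling, had 7.47, 6.53 and 5.46 in the WT and 5.40, 5.10 and 5.18 in L4, a difference of -1.26 with adjoining groups. The brassinosteroid oxidase gene CYP85A1 had -1.44 and the aldehyde oxidase gene TAO3 -1.09, both with overlap. Cell cycle genes had 5 higher and 6 lower means among 11, from -0.59 for the inhibitor gene krp2 to 1.40 for the kinase gene CDKB2.

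Several lists of general cell functions lay around 0. None of their members was past the unadjusted threshold, against 2.88% of all probe sets, which for lists this short is close to that share. The medians were 0.0070 for 7 kept 14-3-3 genes, 0.0052 for 13 genes of small GTPases and vesicle traffic, -0.010 for 11 genes of ribosomes and translation, and -0.11 for 10 genes of light perception. RAB1B, a GTPase of vesicle traffic, had separate groups at a small difference of 0.57, and tft10, a 14-3-3 gene, at -0.77. Among the kept photosynthesis genes 3 had higher and 3 lower means. CAB4, which encodes a chlorophyll-binding protein of green tissue, had 9.60 on WT replicate 1 and 2.60 to 4.90 on the other 5 stele arrays. CAB6A followed with 7.74 against 2.92 to 4.60, and in the EC both were high on WT replicate 1 as well, at 10.25 and 7.99. Without WT replicate 1 the difference of CAB4 turned from -0.89 to 1.32 and that of CAB6A from -0.89 to 0.61. Whether this array held RNA of other tissue was not tested. FER, CBF1, ERF2 and ACO5 kept their direction without it, but with separate groups they had to, so this says nothing about the array.

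Further genes were picked by the rule of the smallest p with no role given here. LOC543942, listed as a regulator of gene silencing in the annotation of the study, had 7.53, 8.98 and 6.98 in the WT and 2.35, 2.81 and 5.49 in L4, a difference of -4.28 (standard error 0.95; limma, adjusted p = 0.782). Its second probe set had -1.88 with separate groups. LOC544070 had 7.49, 9.65 and 11.14 in the WT and 6.36, 5.23 and 6.52 in L4, a difference of -3.39, and -2.87 on its second probe set. LOC778326 had 10.24, 11.75 and 10.42 in the WT and 9.02, 8.93 and 8.25 in L4, a difference of -2.07. On the higher side, APS-AA2 had 4.30, 5.39 and 5.45 in the WT and 7.69, 8.46 and 6.78 in L4, a difference of 2.60 (standard error 0.62; limma, adjusted p = 0.905). Its groups were separate by more than 1 log2 unit. LOC544060, ARPI, LOC544158, app1 and LTC had differences of 2.05, 1.82, 1.68, 1.38 and 0.93, and of these LTC alone had separate groups. The probe sets without a symbol that had the smallest p, 2 in each direction, had differences of -3.60, -3.41, 2.87 and 3.26, each with separate groups.

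The EC of the same root pools was set beside the stele for these genes, with the difference between L4 and WT in the EC given with all arrays and without L4 EC replicate 2. FER lay higher by 2.92 in the EC (2.93 without that array), ACO5 lower by 6.87 (7.88), ERF2 lower by 4.62 (4.90) and CBF1 lower by 4.14 (3.35). For these 4 genes the EC groups were separate too, which holds for 15.4% of all kept probe sets in either direction (29.7% without that array, when 2 are set against 3). For CBF1 the EC groups parted by a small gap, with 7.70, 7.85 and 9.27 in the WT and 7.63, 2.54 and 2.22 in L4, so that L4 EC replicate 1 lay near the WT level. ETR6 had -2.72 in the EC, ADH2 -1.99 and sus3 -1.73, also with separate groups. Of the 24 genes picked by smallest p, 19 had the same sign in the EC, or 79.2%, against 62.7% of all kept probe sets. Without L4 EC replicate 2 these were 20, or 83.3%, against 63.9%. The 24 were picked for their p in the stele, while 85.5% of all kept probe sets differed there by less than 1 log2 unit. The shares thus describe unlike sets, and a higher share for the 24 is no evidence of agreement. Both sectors came from the same roots and are not independent. Groups were separate in both sectors and higher in L4 for 19 probe sets (0.375%), and lower for 60 (1.18%), or 44 (0.868%) and 73 (1.44%) without that array.

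A difference particular to the stele was not called for any gene. In the test of the stele difference minus the EC difference, fitted with limma and a block for each root pool, 0 of 5068 probe sets (0.0%) were called, the smallest adjusted p was 1.00, and 109 (2.15%) were past the unadjusted threshold. TSI-1 was one of these 109, with a difference in the EC of -1.96 and thus 4.10 between the sectors (5.16 without L4 EC replicate 2). Its EC values were 9.86, 12.17 and 13.50 in the WT and 7.02, 12.06 and 10.57 in L4, with overlap. GLB2 had -0.59 in the EC and 2.29 between the sectors. FESOD had EC values of 6.75, 6.35 and 6.32 in the WT and 4.72, 4.77 and 4.39 in L4, a difference of -1.85 with separate groups, which set it apart from its 0.77 in the stele by 2.62. LOC544279, the receptor with tight values in the stele, had -1.61 in the EC with all arrays and 0.016 without L4 EC replicate 2. THT7-8 had -4.30 in the EC (-3.70 without that array) against -0.79 in the stele. The adjusted p of the difference between sectors was 1.00 from limma for each of these genes.

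**Figure D5:**
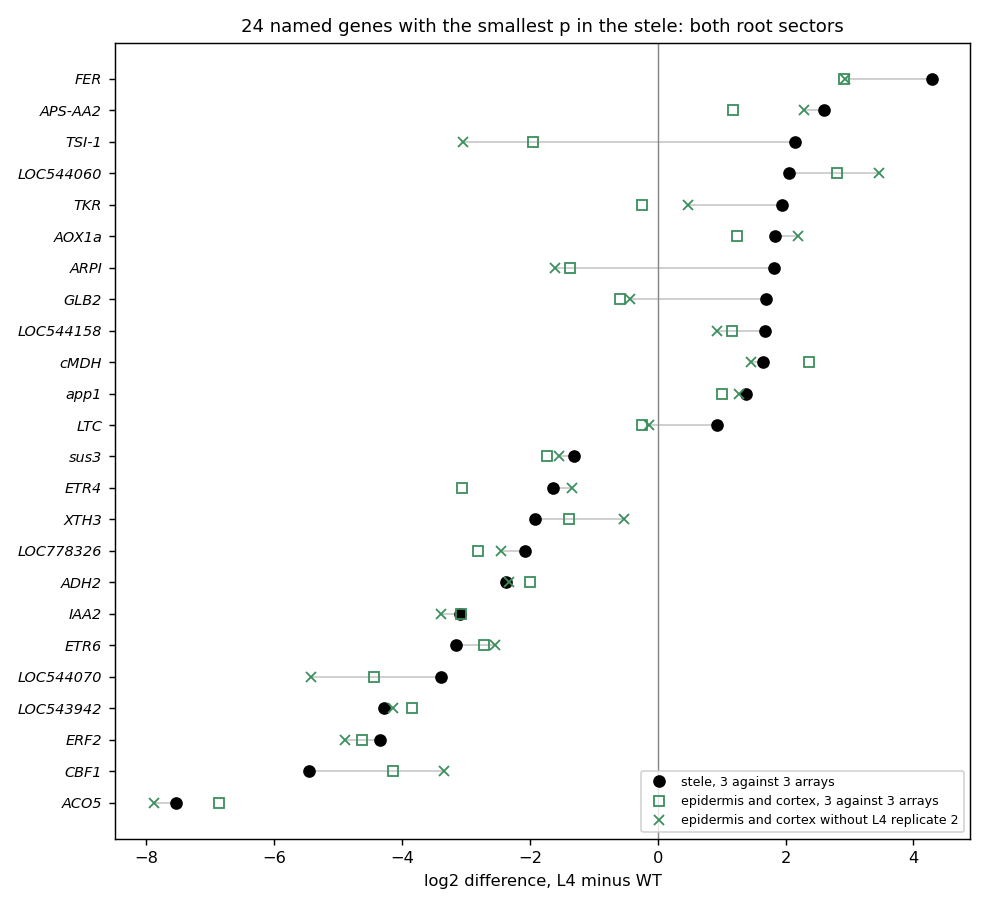
Log2 difference between L4 and WT (x axis) in the stele (black circles), in the EC (open green squares) and in the EC without L4 replicate 2 (green crosses) for the 24 genes picked by smallest p in the stele (y axis). FER, ACO5, ERF2 and CBF1 lie on the same side of 0 in both sectors, while TSI-1, GLB2 and ARPI lie on opposite sides.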

How the data were processed

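The 6 stele samples, 3 a genotype, were hybridised to Affymetrix tomato arrays. The values the authors deposited are log2 per probe set; how probes were summarised and arrays normalized was not given in the sources used here, so fold changes hold on that scale only. No detection call was used, and precision is limited by the number of arrays. All 12 value columns were mapped to samples by their labels, with 0 left over. The replicates of a genotype come from 3 independent experiments, each with its own root pool, dissection and amplification.

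Differences were tested with limma 3.58.1 under R 4.3.3 (functions lmFit and eBayes, genotype as the only term, 4 residual degrees of freedom), with Benjamini-Hochberg adjustment over the 5068 probe sets kept. The difference between the sectors was fitted over 12 arrays with the root pool as a block. The fit was tested on simulated data. Symbols came from the platform annotation, updated by gene identifier for 885 of 910 probe sets with a symbol, and 1 name (LebZIP44) came from the text of the study. Of several probe sets of a gene, the one highest on average in the stele was used, and no other probe set of a named gene had the opposite sign. Named genes are the 12 with the smallest p in each direction (none being called), the 3 with the smallest p in each list, the root genes of the study and the markers, 92 in all. Other genes printed with a value were taken from the same lists after their values were seen.

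Lists were built from symbols and synonyms and amended by hand, 5 of the 26 added, after values had been seen. The members, lists and tests were chosen with earlier results of these data known. Alternatives were other level filters, all 12 arrays, a replicate block, array weights, quantile normalization, median centring, eBayes with trend and robust, and leaving out each array; 2 more were chosen once the data had been seen, leaving out replicate 3 of both genotypes and, for the sectors, L4 EC replicate 2. Python 3.11.15 and matplotlib 3.10.9 drew the figures.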

Additional observations from a re-analysis of the deposited data

How the results depend on the processing

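No alternative but the array weights called a probe set. Array weights called 19, whose estimation did not converge, and put 486 higher and 387 lower before adjustment. The unadjusted counts, 54 higher and 92 lower, were 110 and 139 with no level filter, 226 and 167 without replicate 3 of both genotypes, and 20 to 145 and 48 to 183 without single arrays, so which direction has more depends on single arrays; the cause was not tested. The share of these that lay higher was 37.0%, 55.7% with array weights, 57.5% without replicate 3 of both genotypes and 24.4% to 58.7% without single arrays. The lowest and highest of the higher counts came without L4 replicates 2 and 3, and of the lower counts without WT replicates 2 and 3. The smallest adjusted p was 0.107 and lay between 0.0703 (without WT replicate 3) and 0.853 (without L4 replicate 2) in the alternatives other than array weights, with 0.0890 after quantile normalization and 0.0957 after median centring. For the difference between the sectors, 242 probe sets were past the unadjusted threshold with no level filter, against 109, and 110 without L4 EC replicate 2.

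The replicate number as a block gave 101 higher, 160 lower and 0 called. Same-numbered stele arrays deviated together with correlations of 0.067, 0.31 and 0.36 for replicates 1, 2 and 3. Between arrays of unlike number the correlations were -0.36 to 0.13. Replicates 2 and 3 thus went most with the array of their own number, and replicate 1 did not. Whether equal numbers mark the same experiment is not given in the labels, so the main fit held no replicate block.

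Of the 92 named genes 73 kept their sign in every alternative, the 24 with the smallest p among them. These 24 were picked by p on the same arrays, and some had to differ through the level filter. Their stable signs thus follow largely from that choice and are no independent evidence. Array weights called FER, APS-AA2, CBF1, ERF2, ACO5 and LOC543942 and turned HSP17-6 to -0.23, ER21 to -1.73, eIF-5A4 to 0.068, Cry1b to -0.38, Nramp2 to 0.093, NRAMP3 to 0.34 and THT7-8 to 0.23. Without replicate 3 of both genotypes HSP17-6 was at -0.62, ER21 at -0.36, TFT9 at -0.16, Cry1b at -0.46 and ACO4 at 0.00085. Without single arrays the signs turned within these ranges: MTA -0.23 to 0.96, abz1 -0.29 to 1.58, HSP17-6 -0.16 to 1.05, ER21 -0.25 to 2.17, IAA17 -0.67 to 0.19, IAA27 -0.25 to 1.12, MAPK10 -0.74 to 0.076, CAB6A -1.80 to 0.61, CAB4 -2.18 to 1.32, tft4 -0.11 to 0.39, TFT9 -0.21 to 0.36, Cry1b -0.21 to 1.19, Nramp2 -0.17 to 0.064, NRAMP3 -0.88 to 0.62, ACO4 -0.64 to 0.073, exp18 -0.19 to 0.38 and SUT2 -0.51 to 0.82. The median of the ethylene synthesis and perception list was -0.26 without L4 replicate 1. Array signal near the lower quartile on at least 1 L4 array leaves the sizes of CBF1, ACO5, ETR6 and LOC543942 uncertain.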
